A study of Canis lupus familiaris and Dasypus novemcinctus and Ornithorhynchus anatinus with 3 samples.

Results

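The imprinted growth genes of eutherians (placental mammals) examined here are IGF2, IGF2R, PEG3, PEG10, MEST, GRB10, CDKN1C, PHLDA2, PLAGL1 and SGCE. They were chosen by name and matched to the upper-case gene symbol in each deposited table. Of the 10 names, 7 had a row in at least 1 table, 3 had a row in every table (MEST, GRB10 and SGCE), and PEG3, PEG10 and CDKN1C had a row under their symbol in none and are not analysed here. Together the members filled 14 of 50106 gene rows, with 5 rows in the dog table, 4 in the armadillo table and 5 in the platypus table.

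The series measured messenger RNA as read counts per gene in the lining of the uterus (endometrium) of pregnant dog, armadillo and platypus, with 1 library per species. Dog and armadillo are eutherians, and platypus is an egg-laying mammal (monotreme). The labels give no stage of pregnancy, age, strain or number of animals, and no treatment or genotype. With 1 library per group no difference has a replicate check, no p-value was computed, and all intervals are 95% intervals that cover counting error only.

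An imprinted gene is expressed mainly from the copy inherited from one parent. In eutherians many such genes act on growth of the fetus and placenta: several that are active from the father's copy promote growth, and several active from the mother's copy restrain it. Imprinting is known from eutherians and marsupials and has not been found in monotremes. Read counts per gene do not tell the parental copies apart, so the values below are total levels, and expression by parental copy was not measured.

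Depth was similar in the eutherians, with 13625468 reads over 19290 genes for dog and 13218476 over 12335 for armadillo, and lower in platypus, with 2243556 reads over 18481 genes. Levels are given as CPM, each gene's count divided by the library total and scaled to a common depth. A single read was worth 0.0734 CPM in dog, 0.0757 CPM in armadillo and 0.446 CPM in platypus. The armadillo table lists no gene without reads, so a gene missing from it was not taken as 0. A missing row may also be a gene listed without a usable symbol, since the share of rows with one was 71.4% in dog, 86.4% in armadillo and 64.6% in platypus. Counts and CPM are not corrected for gene length in any library, dog included, so a fold between species also holds any difference between the gene models.

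The clearest pattern was that the 3 members matched between dog and armadillo, MEST, GRB10 and SGCE, were all much lower in the dog library. Only genes with reads are listed for armadillo, so a member without reads there could not be matched or called higher in dog. PLAGL1 and IGF2 had reads in dog but no row under their symbols in armadillo. The limit for a call was a 4-fold difference of (CPM + 1), with at least 5 CPM in whichever library was higher. All 3 passed it, where 13.3% of all genes matched between dog and armadillo were lower in dog by this rule. With 2 CPM required in both libraries, which leaves out MEST, 2 of 2 members passed, where 649 of 6669 genes were lower in dog. Against platypus the same genes parted. GRB10 and MEST were higher in armadillo than in platypus, as were 36.1% of all genes matched in that pair. The MEST call rests on 1 platypus read. SGCE was far lower in dog than in platypus, where 9.91% of matched genes were lower in dog. In armadillo SGCE was close to the platypus level. In CPM, which is not corrected for gene length, the largest value of any member was that of IGF2R in armadillo. IGF2R had no row under its symbol in dog or platypus. The growth factor gene IGF2 was near the limit of detection in dog.

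**Figure D1:**
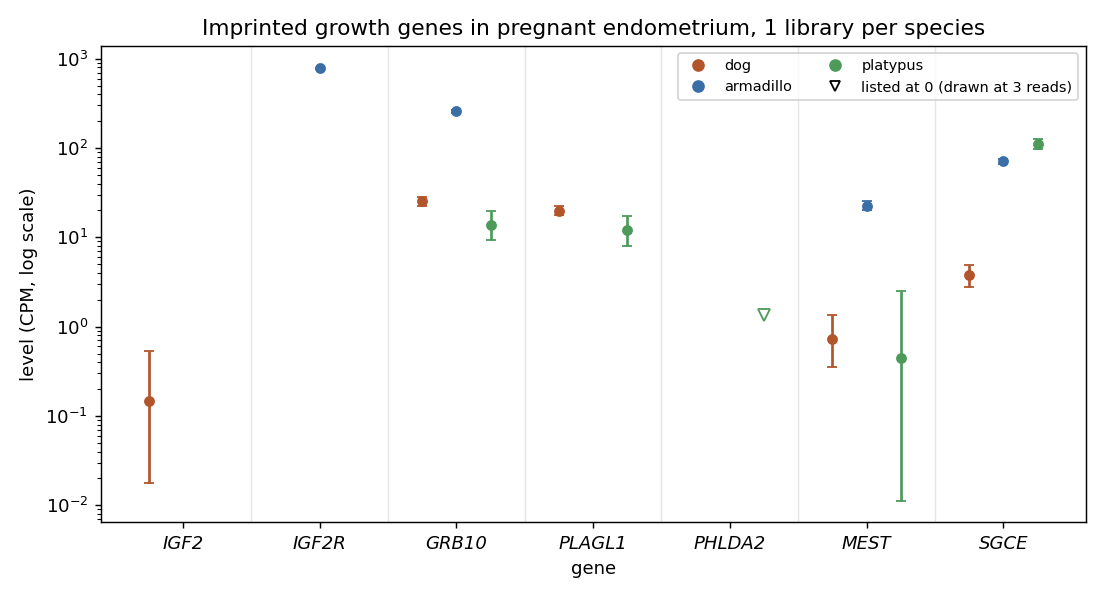
Level of each member with a row in at least 1 table, in CPM on a log scale, for dog, armadillo and platypus (1 library each). Points are single measurements, bars are exact Poisson 95% intervals, a gap means no row under the symbol, and the open triangle marks PHLDA2, listed at 0 in platypus and drawn at the level of 3 reads. MEST and GRB10 stand highest in armadillo, and SGCE stands at 3.74 CPM in dog, 71.4 CPM in armadillo and 111 CPM in platypus.

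IGF2 encodes insulin-like growth factor 2, a growth factor of the fetus and placenta that is expressed from the father's copy in mouse and human. In dog it (ENSCAFG00000010090) had 2 reads, equal to 0.147 CPM with an interval of 0.0178 to 0.530 CPM. The length of this dog gene model, as implied by its reads and relative abundance, was 585 bases. IGF2 reads outside the model may go uncounted, which was not tested. It had no row under its symbol in armadillo or platypus, so its level was not compared between species. IGF2R encodes the cation-independent mannose 6-phosphate receptor, which carries lysosomal enzymes and, in eutherians and marsupials, also binds IGF2 and removes it. In armadillo it (ENSDNOG00000000201) had 10318 reads, equal to 781 CPM with an interval of 766 to 796 CPM. It had no row under its symbol in dog or platypus.

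M6PR, the smaller mannose 6-phosphate receptor, which does not bind IGF2, was present in every table. It stood at 86.1 CPM in dog (interval 81.2 to 91.2), 125 CPM in armadillo (119 to 131) and 291 CPM in platypus (269 to 314), and no pair of libraries passed the 4-fold limit. Of a list of 12 genes of mannose 6-phosphate sorting that leaves out IGF2R, 8 were matched between dog and armadillo, with 2 past the 4-fold limit upward in dog and 0 downward (1 upward with median-of-ratios scaling), beside 12.6% and 13.3% of all matched genes. Those higher in dog were VPS26A, a retromer subunit, at 160 CPM against 20.7 CPM in armadillo, and AP1G1, a subunit of the clathrin adaptor AP-1, at 265 CPM against 57.1 CPM. Between dog and platypus 3 of 8 were higher in dog and 0 lower (1 lower with median-of-ratios scaling), beside 32.0% and 9.91% of all matched genes. Between armadillo and platypus 1 of 6 was higher in armadillo and 0 lower, beside 36.1% and 11.0% of all matched genes. The median log2 fold of this list was 0.75 for dog over armadillo, 1.83 for dog over platypus and 1.09 for armadillo over platypus. Over all matched genes those medians were 0.0026, 0.61 and 1.06.

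GRB10 encodes an adaptor protein that binds the insulin and IGF1 receptors and dampens their signals. GRB10 had 344 reads in dog (ENSCAFG00000003422), 3404 in armadillo (ENSDNOG00000014604) and 31 in platypus (ENSOANG00000000283). Its level was 25.2 CPM in dog (interval 22.6 to 28.1), 258 CPM in armadillo (249 to 266) and 13.8 CPM in platypus (9.39 to 19.6). The order was thus armadillo, then dog, then platypus, and the intervals of the 3 libraries did not overlap. GRB10 was 10.2-fold lower in dog than in armadillo (9.13 to 11.4) and 18.6-fold higher in armadillo than in platypus (13.1 to 27.5). Against platypus GRB10 was 1.83-fold higher in dog (1.26 to 2.73), below the 4-fold limit, and with upper-quartile scaling this direction turned (log2 fold 0.82, and -0.14 with that scaling).

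The relatives of GRB10 were measured beside it. GRB7 stood at 25.9 CPM in dog and 40.1 CPM in armadillo and was listed at 0 in platypus, where a count of 0 allows up to 1.64 CPM. GRB14, which also binds the insulin receptor, stood at 23.3 CPM in dog, 45.5 CPM in armadillo and 1.34 CPM (3 reads) in platypus. Neither relative passed the 4-fold limit between dog and armadillo, at 1.55-fold and 1.95-fold lower in dog. The insulin receptor gene INSR had 45.5 CPM in dog, 451 CPM in armadillo and 89.6 CPM in platypus, and was 9.91-fold lower in dog than in armadillo (9.13 to 10.8), a fold close to that of GRB10. IGF1R, the receptor for IGF1 and IGF2, stood at 88.9 CPM in armadillo and 10.7 CPM in platypus, an 8.31-fold difference (5.56 to 13.0), and had no row under its symbol in dog.

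SGCE encodes epsilon-sarcoglycan, a membrane protein of the dystrophin-associated complex, which links the cytoskeleton to the matrix. SGCE had 51 reads in dog (ENSCAFG00000002104), 944 in armadillo (ENSDNOG00000002355) and 248 in platypus (ENSOANG00000004259). Its level was 3.74 CPM in dog (interval 2.79 to 4.92), 71.4 CPM in armadillo (66.9 to 76.1) and 111 CPM in platypus (97.2 to 125). Dog therefore stood apart below the other libraries, at 19.1-fold lower than armadillo (14.4 to 25.8) and 29.5-fold lower than platypus (21.8 to 40.7). Armadillo was 1.55-fold lower than platypus (1.34 to 1.78), a difference below the 4-fold limit.

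Other genes of the dystrophin-associated complex were listed to set SGCE beside its partners. Their list was shortened after its values were seen, so its counts and medians are descriptions only. Of the 11 genes on it, 6 were matched between dog and armadillo, with 2 past the 4-fold limit downward in dog and 0 upward, beside 13.3% and 12.6% of all matched genes: SNTB2, a syntrophin adaptor, and DTNA, a dystrobrevin. SNTB2 stood at 3.08 CPM in dog, 37.4 CPM in armadillo and 24.96 CPM in platypus. DTNB, another dystrobrevin gene, stood at 12.2 CPM in dog, 36.7 CPM in armadillo and 34.3 CPM in platypus, within the 4-fold limit in each pair. DTNA had 1 read in dog, 710 in armadillo and 2 in platypus, so that it was high in armadillo alone. The median log2 fold of these partners was -1.68 for dog over armadillo and -1.12 for dog over platypus, where 2 of 6, SNTB2 and SSPN, were lower in dog and 0 higher. Between armadillo and platypus it was 0.11, with 1 of 7, DTNA, higher in armadillo and 1, SSPN, lower. Over all matched genes the medians were 0.0026, 0.61 and 1.06 in the same order. Of all genes matched between dog and platypus 32.0% were higher in dog and 9.91% lower. Of those matched between armadillo and platypus 36.1% were higher in armadillo and 11.0% lower.

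Among the sarcoglycans themselves, SGCB stood at 77.7 CPM in armadillo and 220 CPM in platypus, 2.83-fold lower in armadillo. SGCD stood at 3.45 CPM in dog and 1.89 CPM in armadillo, 1.82-fold higher in dog (interval 1.10 to 3.09) and below the 4-fold limit. SGCA stood at 0.587 CPM (8 reads) in dog and was listed at 0 in platypus, which allows up to 1.64 CPM. SGCZ had 1 read in armadillo and was listed at 0 in dog and platypus. SSPN, which encodes sarcospan, stood at 0.587 CPM in dog, 4.69 CPM in armadillo and 61.5 CPM in platypus, and was lower in each eutherian than in platypus. DAG1, the dystroglycan gene, stood at 405 CPM in armadillo and 222 CPM in platypus.

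**Figure D2:**
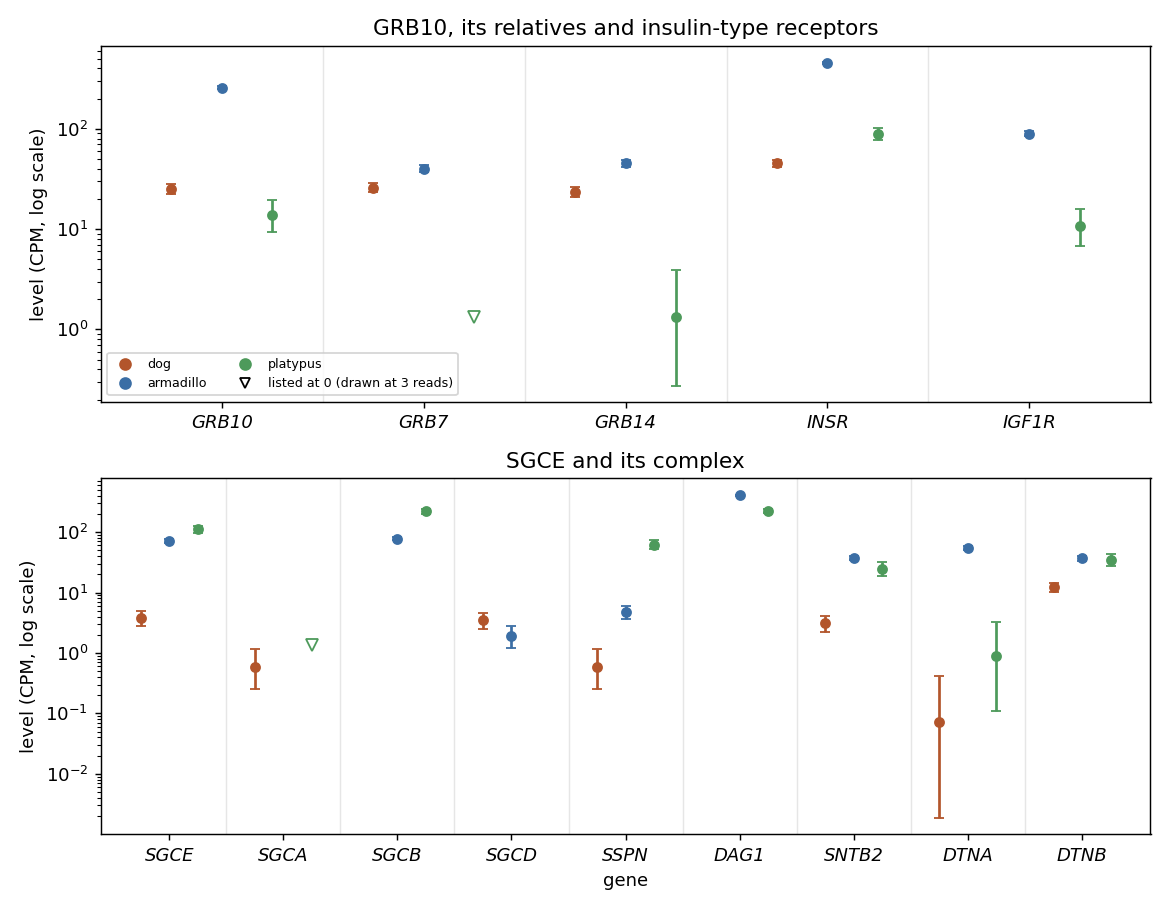
Levels in CPM on a log scale of GRB10 with GRB7, GRB14, INSR and IGF1R (top) and of SGCE with its complex (bottom), in dog, armadillo and platypus. Points are single libraries with exact Poisson 95% intervals, open triangles mark genes listed at 0 and are drawn at 3 reads, and a gap means no row under the symbol. INSR (45.5, 451 and 89.6 CPM) and GRB10 (25.2, 258 and 13.8 CPM) are both highest in armadillo. SGCE, SNTB2, SSPN and DTNB are lowest in dog, while DTNA is high in armadillo alone and SGCD is higher in dog than in armadillo. SGCA has 8 reads in dog and is listed at 0 in platypus.

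MEST encodes a protein of the alpha/beta hydrolase fold family that is expressed from the father's copy in mouse and human and is named for its expression in mesoderm. MEST had 10 reads in dog (ENSCAFG00000001450), 298 in armadillo (ENSDNOG00000019783) and 1 in platypus (ENSOANG00000011469). Its level was 0.734 CPM in dog (interval 0.352 to 1.35), 22.5 CPM in armadillo (20.1 to 25.3) and 0.446 CPM in platypus (0.0113 to 2.48). Armadillo stood above the others, and dog and platypus could not be separated at this depth. MEST was 30.7-fold lower in dog than in armadillo (16.5 to 64.7) and 50.6-fold higher in armadillo than in platypus (9.01 to 2004). The second interval is wide because it rests on 1 platypus read.

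PLAGL1 encodes a zinc finger transcription factor that regulates other imprinted genes in mouse. PLAGL1 had 271 reads in dog (ENSCAFG00000000318) and 27 in platypus (ENSOANG00000014866), and no row under its symbol in armadillo. Its level was 19.9 CPM in dog (interval 17.6 to 22.4) and 12.0 CPM in platypus (7.93 to 17.5), a 1.65-fold difference (1.11 to 2.55) whose direction turned with upper-quartile scaling (log2 fold 0.68, and -0.27 with that scaling). Its relative PLAGL2 stood at 11.2 CPM in dog and 9.53 CPM in armadillo, and PLAG1 stood at 0.807 CPM (11 reads) in dog and 3.12 CPM (7 reads) in platypus, 3.86-fold lower in dog (1.27 to 10.9) and below the 4-fold limit. PHLDA2, a pleckstrin homology domain protein that restrains growth of the placenta in mouse, was listed at 0 in platypus (ENSOANG00000010715), which allows up to 1.64 CPM, and had no row under its symbol in dog or armadillo.

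Set against all matched genes, the members were called as follows. Between dog and armadillo 0 of 3 matched members were higher in dog and 3 were lower, where 12.6% of 8908 matched genes were higher and 13.3% lower. Their median log2 fold was -3.76, against 0.0026 over all matched genes, and the share of all matched genes with a fold at or below theirs was 4.37% for SGCE, 4.87% for MEST and 6.47% for GRB10. Between dog and platypus 0 of 4 members were higher in dog and 1, SGCE, was lower, where 32.0% of 9073 genes were higher and 9.91% lower. The share at or below SGCE was 2.03%, and the median of the 4 members was 0.47, against 0.61 over all matched genes.

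Between armadillo and platypus 2 of 3 members, GRB10 and MEST, were higher in armadillo and 0 were lower, where 36.1% of 7296 genes were higher and 11.0% lower. The share of genes at or below them was 83.1% for GRB10 and 82.3% for MEST, and the median of the 3 members was 4.03, against 1.06 over all matched genes. With only 3 or 4 matched members in a pair, these counts describe single genes. Each library enters 2 of the comparisons, so the low dog values and the high armadillo values are each counted more than once.

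**Figure D3:**
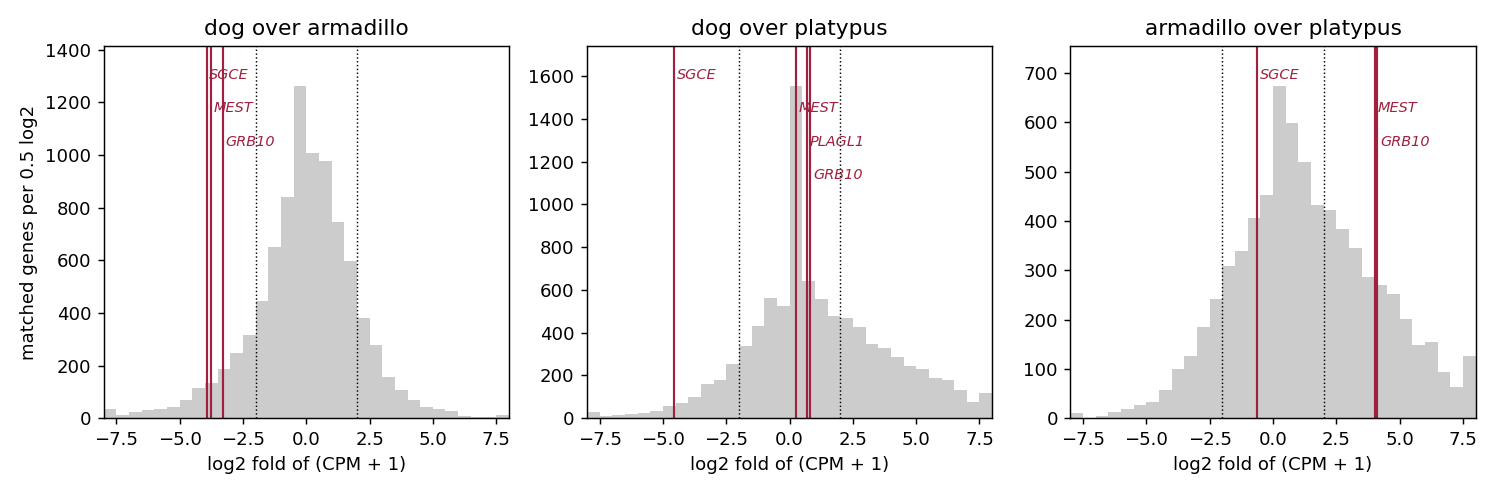
Number of matched genes by log2 fold of (CPM + 1), for dog over armadillo, dog over platypus and armadillo over platypus, with folds beyond 8 placed in the outer bins. Red lines mark the matched members and dotted lines the 4-fold limits. SGCE, MEST and GRB10 lie between -3.93 and -3.30 for dog over armadillo, SGCE lies alone at -4.56 for dog over platypus, and the directions of MEST, GRB10 and PLAGL1 in that panel turn with upper-quartile scaling.

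Library scaling shifts all genes together. Median-of-ratios scaling moved the CPM ratio of each gene, before the pseudocount, by -0.32 (log2) for dog over armadillo, -0.59 for dog over platypus and -0.27 for armadillo over platypus. The share of calls that were higher in dog, for dog over platypus, was 76.3%, and 58.9% with upper-quartile scaling. The share higher in armadillo, for armadillo over platypus, was 76.6%, and 63.5% with that scaling. Ratios between members within a library do not depend on the scaling. The reads of GRB10 divided by those of SGCE were 6.75 in dog, 3.61 in armadillo and 0.125 in platypus. That ratio was 54.0 times as high in dog as in platypus (interval 32.8 to 89.5), 28.8 times as high in armadillo as in platypus (19.6 to 43.6) and 1.87 times as high in dog as in armadillo (1.38 to 2.58). The reads of GRB10 divided by those of PLAGL1 were 1.27 in dog and 1.15 in platypus, and the interval of their quotient, 0.618 to 1.97, included 1.

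**Figure D4:**
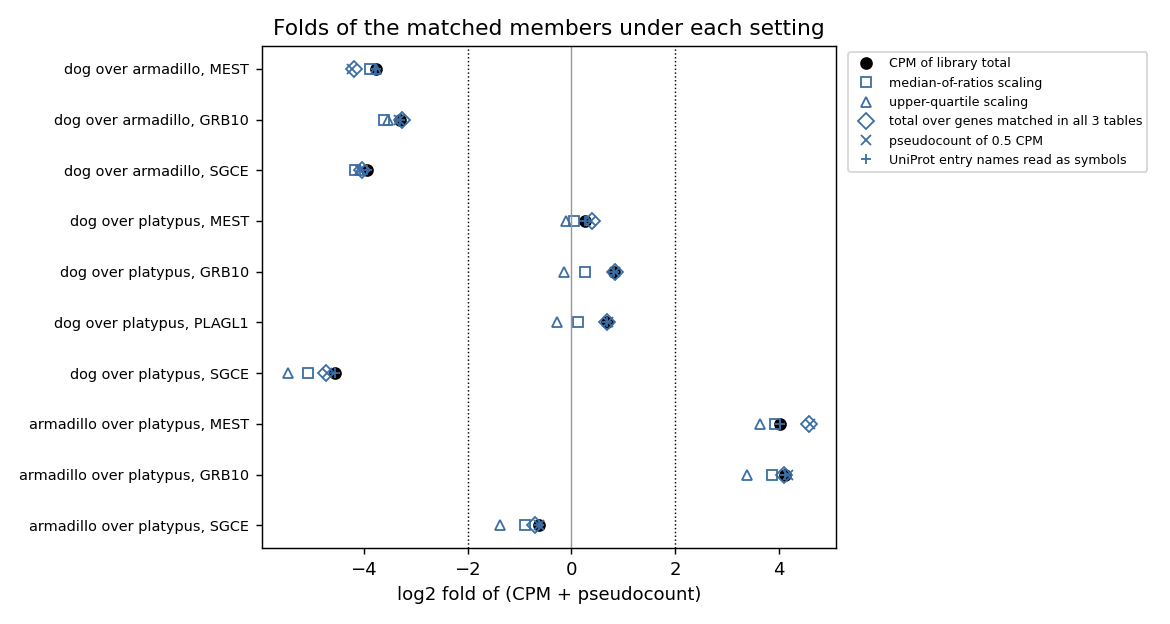
Log2 fold of each matched member in each pair of libraries, with CPM of the library total (filled circles) and under each alternative (open or line symbols), where dotted lines mark the 4-fold limits. The folds of SGCE, MEST and GRB10 for dog over armadillo stay below -2 under each setting shown, whereas MEST, GRB10 and PLAGL1 for dog over platypus lie near 0 and turn negative with upper-quartile scaling.

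Only the dog table allows members to be compared per length, through the authors' deposited relative abundance. On that scale, whose unit the header does not state, GRB10 had 11.1, PLAGL1 8.82, SGCE 1.42, MEST 0.411 and IGF2 0.155. Per length GRB10 was 1.26-fold higher than PLAGL1 (interval 1.07 to 1.49) and 7.84-fold higher than SGCE (5.83 to 10.7), and SGCE was 3.46-fold higher than MEST (1.73 to 7.63). MEST and IGF2 were not separated (2.66-fold, 0.566 to 24.9). By this abundance 66.3% of all dog genes lay at or below GRB10 and 31.3% at or below IGF2, with the other members between them.

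Cell type markers differed between the libraries as well, and fewer cells of a type and less RNA per cell cannot be told apart in bulk tissue. Summed over the markers with a row, smooth muscle markers stood at 53.1 CPM in dog (5 of 8 with a row), 25615 CPM in armadillo (5 of 8) and 16625 CPM in platypus (7 of 8, none at 0). Stromal markers summed to 889 CPM in dog (4 of 11), 30680 CPM in armadillo (10 of 11) and 8569 CPM in platypus (10 of 11, THY1 at 0). Epithelial markers summed to 2885 CPM in dog (6 of 11), 887 CPM in armadillo (8 of 11) and 32.1 CPM in platypus (7 of 11, ST14 and ELF3 at 0). Endothelial markers summed to 244 CPM in dog (4 of 9), 2846 CPM in armadillo (5 of 9) and 23.2 CPM in platypus (7 of 9, with VWF, KDR, TEK and ESAM at 0), and leukocyte markers to 15.3 CPM in dog (6 of 9), 268 CPM in armadillo (8 of 9) and 0.446 CPM in platypus (2 of 9, with 1 read of CD14 and CD79B at 0). Different genes enter each sum, so the sums are not like for like.

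By the 4-fold limit, smooth muscle markers matched in a pair were lower in dog in 3 of 3 against armadillo and 4 of 4 against platypus. Between armadillo and platypus 2 of 4 were higher in armadillo and 1 lower (median log2 fold 2.57), beside 36.1% and 11.0% of matched genes. Against armadillo, 4 of 6 leukocyte and 1 of 1 endothelial markers were lower in dog, and 4 of 5 epithelial markers higher. Against platypus, 5 of 6 epithelial and 2 of 3 endothelial markers were higher in dog. Over all matched genes 12.6% were higher and 13.3% lower in dog against armadillo, and 9.91% were lower and 32.0% higher in dog against platypus. Stromal markers were lower in dog in 3 of 4 against armadillo (4 of 4 with median-of-ratios scaling). Against platypus 1 of 4 stromal markers, FBLN1, was higher in dog and 1, LUM, was lower, with a median log2 fold of 0.17, and VIM, COL1A1, COL1A2 and DCN had no row under their symbols in dog. The part of these cell types in the folds was not tested. Trophoblast (placental) markers, of interest because most of the members are active in the placenta, summed to 52.0 CPM in dog (7 of 11), 129 CPM in armadillo (8 of 11) and 32.5 CPM in platypus (9 of 11). The largest term of the armadillo sum was PPARG, at 69.2 CPM. PPARG stood at 3.12 CPM in platypus and had no row under its symbol in dog. Of the defining factors GCM1 had no row in dog, 3 reads in armadillo and was listed at 0 in platypus, and ELF5 had 1 read in dog, 23 in armadillo and was listed at 0 in platypus. TFAP2C, TEAD4 and CYP19A1 were also listed at 0 in platypus. These markers did not share an order: TFAP2C stood at 2.13 CPM in dog and 45.2 CPM in armadillo, and PGF at 21.0 CPM in dog, 4.01 CPM in armadillo and 0.446 CPM in platypus. HAND1 stood at 1.54 CPM in dog, 7.57 CPM in armadillo and 11.6 CPM in platypus, DLX3 at 0.220, 0.303 and 17.4 CPM in the same libraries, and TEAD4 at 26.9 CPM in dog. The part of trophoblast in the members' levels was not tested.

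Genes of IGF signalling other than the members give the setting in which IGF2R and GRB10 act. Of 21 listed genes 15 were matched between dog and armadillo, with 3 past the 4-fold limit upward in dog and 8 downward and a median log2 fold of -2.38 (1 upward with median-of-ratios scaling), beside 12.6% and 13.3% of all matched genes. Of the genes for proteins that bind IGFs outside the cell, only IGFBP1 passed the limit upward in dog. IGFBP2, IGFBP3, IGFBP4, IGFBP5 and IGFBP6 all passed it downward. IGFBP1 was 20.4-fold higher in dog (17.9 to 23.3), at 378 CPM in dog and 18.5 CPM in armadillo, and was listed at 0 in platypus. IGFBP2 and IGFBP5 were lower in dog, at 91.0 CPM and 17.7 CPM in dog against 9230 CPM and 2041 CPM in armadillo. IGFBP3, IGFBP4 and IGFBP6 were 110-fold, 16.7-fold and 32.0-fold lower in dog than in armadillo. IRS2, an adaptor below the insulin and IGF1 receptors, stood at 53.1 CPM in dog and 11.1 CPM in armadillo, past the limit with library totals and under it with median-of-ratios scaling. Between dog and platypus 5 of 12 were higher in dog and 2 lower (median 1.26, and 3 higher with median-of-ratios scaling), beside 32.0% and 9.91% of all matched genes. Between armadillo and platypus 8 of 13 were higher in armadillo and 0 lower (median 2.33), beside 36.1% and 11.0%.

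Further genes known to be imprinted in mouse or human were counted from a list of 30. Between dog and armadillo 12 were matched, with 2 past the 4-fold limit upward in dog, 2 downward and a median log2 fold of -0.92, beside 12.6% and 13.3% of all matched genes. DLX5, a homeobox gene, stood at 277 CPM in dog and 3.86 CPM in armadillo, and INPP5F, an inositol phosphatase gene, at 314 CPM in dog, 26.9 CPM in armadillo and 6.24 CPM in platypus. DLK1, a transmembrane regulator of growth expressed from the father's copy, had 1 read in dog, 86 reads in armadillo and was listed at 0 in platypus, so that like MEST it was highest in armadillo. GNAS, which encodes the stimulatory G protein alpha subunit, was abundant in the eutherians, at 2003 CPM in dog, 3345 CPM in armadillo and 128 CPM in platypus. Between dog and platypus 5 of 9 were higher in dog and 0 lower (median 2.35), beside 32.0% and 9.91% of all matched genes. With median-of-ratios scaling 1 was lower, beside 1221 of 9073 matched genes. Between armadillo and platypus 4 of 7 were higher in armadillo and 0 lower (median 2.91), beside 36.1% and 11.0%. With genes at 0 left out 2 of 5 were higher, beside 1485 of 5393 matched genes.

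In the dog RefSeq annotation (assembly UU_Cfam_GSD_1.0, used for gene order only) CASD1 and PEG10 lie on either side of SGCE, COPG2 lies beside MEST, and COBL and DDC lie beside GRB10. CASD1, a sialic acid acetyltransferase gene, stood at 10.6 CPM in dog, 10.1 CPM in armadillo and 91.8 CPM in platypus. CASD1 and SGCE were thus each lower in dog than in platypus, at 8.69-fold (interval 6.99 to 10.8) and 29.5-fold, while armadillo CASD1 did not share the high armadillo level of SGCE. COPG2, a coatomer subunit gene, stood at 75.6 CPM in dog and 120 CPM in platypus, far above the 10 reads and 1 read of MEST. Whether counting used strand is not given in the sources used here, so reads of overlapping or antisense genes cannot be told apart. COBL, an actin nucleator gene, was 6.36-fold higher in dog than in armadillo (5.18 to 7.86), the opposite direction to GRB10. DDC, which encodes aromatic amino acid decarboxylase, stood at 17.0 CPM in armadillo and was listed at 0 in platypus, the same direction as GRB10 in that pair, and had no row under its symbol in dog. Of 33 genes listed as lying near the members, 12 were matched between dog and armadillo (1 at least 4-fold higher in dog, 2 lower, median -0.79), 12 between dog and platypus (4 higher, 2 lower, median 0.00) and 9 between armadillo and platypus (3 higher in armadillo, 1 lower, median 1.68). With genes at 0 left out, the medians of these genes were -0.32, 0.96 and -0.25, the last of opposite sign, the lower counts in the dog pairs were 1 each, and the count higher in armadillo than in platypus was 1. Taking instead the 2 genes on each side of every member in the RefSeq order, 7 were matched between dog and armadillo (1 higher in dog, 2 lower, median 0.05), 12 between dog and platypus (3 higher, 1 lower, median 0.05) and 7 between armadillo and platypus (3 higher in armadillo, 1 lower, median 1.68). The sign of the dog over armadillo median thus depends on which neighbours are counted, and the shares of all matched genes given above apply here to the counts with genes at 0 kept.

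Genes that set and keep imprinting marks, such as DNA methyltransferases, were also listed. Of 17 listed genes 8 were matched between dog and armadillo, with 3 higher in dog, 0 lower and a median log2 fold of 0.75, beside 12.6% and 13.3% of all matched genes. UHRF1, which brings the maintenance methyltransferase to newly copied DNA, stood at 323 CPM in dog, 12.0 CPM in armadillo and 39.7 CPM in platypus. Between dog and platypus 3 of 6 were higher in dog and 0 lower (median 1.05, and 2 higher and 1 lower with median-of-ratios scaling), beside 32.0% and 9.91% of all matched genes. Between armadillo and platypus 1 of 7, the maintenance methyltransferase gene DNMT1 at 138 CPM against 17.4 CPM, was higher in armadillo and 0 lower (median -0.19), beside 36.1% and 11.0%.

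The genes nearest in pattern were found by the distance of log2(CPM + 1) over the 3 libraries among 6386 genes matched in every table, which describes levels and is no evidence of shared control. Nearest to GRB10 were NEO1, a netrin receptor gene, at a distance of 0.69, then ATRN and ORAI1, and 10 genes lay within a distance of 1. Nearest to SGCE were C6ORF145, ARL6IP1 and the cell surface receptor gene CDON at 0.71, 0.79 and 0.79, with 6 genes within a distance of 1. MEST had 56 genes within that distance, led by SNX29 (0.40), C21ORF63 (0.40) and TRPM1 (0.45).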

How the data were processed

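Total RNA was extracted with Qiagen RNeasy kits, treated with DNase and made into Illumina libraries, per the labels' protocols. Bowtie was used, per the submitters' processing notes. Its version, the genome builds, the strand setting and the counting rule: not given in the sources used here. For dog the authors deposited estimated counts per gene, per the file headers. These equal mapped bases divided by 34, so 516 were not whole and all were rounded. The deposited relative abundance and mapped bases of dog are scores whose scale the header does not state. For 100% of 5644 dog genes over 500 reads, the quotient of reads and relative abundance, times a constant, was a whole number within 0.1, so this score was read as reads per length. The armadillo and platypus tables hold whole raw counts as the authors deposited them. A line of totals was left out of the dog and armadillo tables.

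Matching between tables used upper-case symbols found once in each. RefSeq gave a symbol to 82 of the 1347 dog genes that carry an accession as name. UniProt entry names and names turned into dates were not matched. Counts were divided by the library total and scaled to CPM, and folds used a pseudocount of 1 CPM, which understates folds of low genes. Ratios in the text carry no pseudocount, and their exact intervals are binomial (Clopper-Pearson), given the sum of the counts compared. Levels have exact Poisson intervals, and a count of 0 allows up to the upper end of its interval. The figures draw a count of 0 at 3 reads. No molecular identifiers are described, so PCR copies count as separate reads and the intervals cover counting error only. The fold rule was tested on simulated counts that held counting error only, with changes put into well-covered genes. That simulation cannot bear on differences between animals or gene models, or on calls of genes with few reads such as MEST. Python 3.11.15, numpy 2.4.6, pandas 2.3.3, scipy 1.17.1 and matplotlib 3.10.9 were used.

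The members and the gene lists were chosen with earlier results of these data known. The lists covered IGF signalling, mannose 6-phosphate sorting, relatives of the members, the dystrophin-associated complex, genes near the members, other imprinted genes, imprint maintenance and 6 cell types. Some genes of the dystrophin-associated complex are not reported here and were taken out of its list after its values were seen. The rule for named genes took all members, their relatives and partners, the 3 genes nearest in pattern, and at most 2 genes per list, pair and direction with at least 10 reads in both libraries. Genes outside it (DLK1, GCM1, ELF5, TEAD4, DLX3, PPARG, IGFBP6, DDC, FBLN1, CD14, CYP19A1, SLC22A3, STC2 and the other markers at 0) were chosen after their values were seen. Alternatives were other scalings (median of ratios, upper quartile, totals over matched genes), a pseudocount of 0.5 CPM, a fold limit of 2, a minimum of 2 CPM in both libraries, leaving out genes at 0, and reading UniProt names as symbols.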

Additional observations from a re-analysis of the deposited data

How the results depend on the processing

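Each count of members past the 4-fold limit was the same under the 8 alternatives except with 2 CPM required in both libraries. There MEST no longer entered, with 10 reads in dog and 1 in platypus, so the members lower in dog than in armadillo numbered 2 of 2 instead of 3 of 3, and those higher in armadillo than in platypus 1 of 2 instead of 2 of 3. Of all genes that pass this filter, 649 of 6669 were lower in dog than in armadillo. In the other pair 972 of 4237 were higher in armadillo than in platypus. The log2 fold of dog over armadillo ranged over the 5 alternatives that bear on it from -4.22 to -3.76 for MEST, from -3.61 to -3.26 for GRB10 and from -4.18 to -3.93 for SGCE. For dog over platypus it ranged from -5.47 to -4.56 for SGCE, and the values with upper-quartile scaling were -0.11 for MEST, -0.14 for GRB10 and -0.27 for PLAGL1, against 0.26, 0.82 and 0.68. For armadillo over platypus it ranged from 3.65 to 4.61 for MEST, from 3.39 to 4.17 for GRB10 and from -1.38 to -0.62 for SGCE. Of 78 list counts, 8 moved by more than 1.5 times with median-of-ratios scaling and 12 with genes at 0 left out, and the cause was not tested beyond the fewer genes that the second leaves. Unless stated, shares of all matched genes are those with library totals and genes at 0 kept. With median-of-ratios scaling 869 of 8908 genes were higher in dog than in armadillo and 1358 lower. Against platypus 2474 of 9073 were higher in dog and 1221 lower, and 2484 of 7296 were higher in armadillo and 963 lower. No paired analysis was possible because each species has 1 library, and for the same reason no library could be left out. Depth limits platypus most, where 1 read is 0.446 CPM.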

Other observations

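ZIM2, a zinc finger gene that shares its first exons with PEG3 in human and lies beside it in the dog annotation, had 222 reads in dog and 1453 in armadillo, equal to 16.3 CPM in dog and 110 CPM in armadillo. It was 6.75-fold lower in dog (interval 5.85 to 7.81), the direction of MEST, GRB10 and SGCE. The dog model that carries this name has an implied length of 4701 bases, against 1398 for GRB10 and 1625 for SGCE. Whether reads of PEG3 are counted under the name ZIM2 was not tested.

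SLC22A3, an organic cation transporter gene that is imprinted with Igf2r in the mouse placenta, was listed at 0 in dog, which allows up to 0.271 CPM, and stood at 108 CPM in armadillo and 129 CPM in platypus. STC2, a secreted glycoprotein that restrains the protease PAPPA, which releases IGFs from their binding proteins, had 4 reads in dog and 6830 in armadillo. SLC22A3 and STC2 were named after their values were seen.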
